A study of Drosophila melanogaster with 6 samples.

Results

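The genes described here are those of chromosome 4, the small autosome of Drosophila melanogaster. They were taken by annotation, but were chosen with earlier results of these data known. A gene was included when a probe set named for it and for no other gene maps to chromosome 4 in the RefSeq gene table. This gave 65 genes, out of 11953 genes with such a probe set on the array and out of 80 protein-coding genes that the table places on the chromosome. Each gene was represented by its brightest probe set, and 48 of the 65 passed a filter on low signal and were tested, among 7801 tested genes in all. Well-known genes of the chromosome without a probe set of their own in the probe table, such as pan, RpS3A, lgs, pho, PlexA, CaMKII and PIP4K, were not analysed here.

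RNA came from whole male larvae in the third instar, with 50 larvae pooled in each preparation and 3 preparations per genotype, each hybridised to its own single-colour Affymetrix Drosophila Genome 2.0 array. Mutant males had the genotype y+ w roX1- roX2-/Y, with SMC17A as the roX1 allele. Control males were y+ w roX1+ roX2-/Y. The control is titled wild type in the labels but lacks roX2, so that both groups share the roX2 mutation and differ in roX1. Every difference given here is between males without and with roX1, all of them lacking roX2, over all tissues of a larva.

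The MSL complex of male flies contains the noncoding RNAs roX1 and roX2, coats the X and increases the output of its genes, which is how dosage is balanced between the sexes. Chromosome 4 is an autosome, but it is largely heterochromatic, its genes sit among repeats and HP1-bound chromatin, and it has its own chromosome-wide protein, Pof, which binds its active genes. It is thought to descend from an ancestral X chromosome. Its few genes include developmental regulators such as ci, ey and toy, the TGF-beta superfamily ligands mav, myo and Actbeta, the ligand and receptor pair Ephrin and Eph, and many genes used in neurons.

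Signals were multiplied by 1 factor per array so that the median autosomal gene stood at 100, and are given on that scale. Differences are log2, mutant less control, and "fell" means a Benjamini-Hochberg adjusted p under 0.05 in limma, fitted over all 7801 genes. Levels are those of a probe set and are compared between arrays, not between genes. Arrays of 1 group correlated across genes at 0.972 or higher, and pairs from different groups at 0.889 to 0.926. Lsp2, a larval serum protein gene, and the salivary glue gene Sgs3 had signals of 2615 to 3073 and 2386 to 2748 over the 6 arrays, and the testis transcript Mst87F lay between 747 and 888. No probe set in the table carries the name roX1 or roX2, so the genotype was not checked at its own loci. The labels name no batch, and 3 arrays per group limit the precision of all values.

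Most genes of chromosome 4 were lower in the mutant. Of the 48 tested, 39 (81.2%) fell, the number that rose was 0 (in limma, and 0 at unadjusted p under 0.05 as well), and 9 did not pass. Over all tested genes 32.4% fell and 23.1% rose, and over those of chromosomes 2 and 3 29.4% fell and 25.5% rose. The signal filter, at 28, works on the mean of all 6 arrays, and 4 of the genes that fell (toy, Syt7, myo and Mitf) had mutant means under it and passed it through their control arrays, so their falls are given as values and are no support. Without these 4, 35 of 44 genes fell. Leaving out mutant array 1 gave 37 falls and 1 rise, that of bt. The falls were mostly moderate: 4 genes were at least 2-fold lower (CG32017, dpr7, toy and Syt7), 11 were lower by 1.5 to 2-fold, and 24 by less than 1.5-fold. All mutant arrays lay below all control arrays for 40 genes (83.3%), against 36.9% of all tested genes, and the opposite arrangement occurred for 0 genes, against 26.4%. The 40 include toy, Syt7, myo and Mitf, and this count was not redone without them. Without rescaling of the deposited values the median of all genes moved from -0.06 to 0.07, and 29 chromosome 4 genes fell and 0 rose while 21.9% of all genes fell and 30.8% rose.

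**Figure D1:**
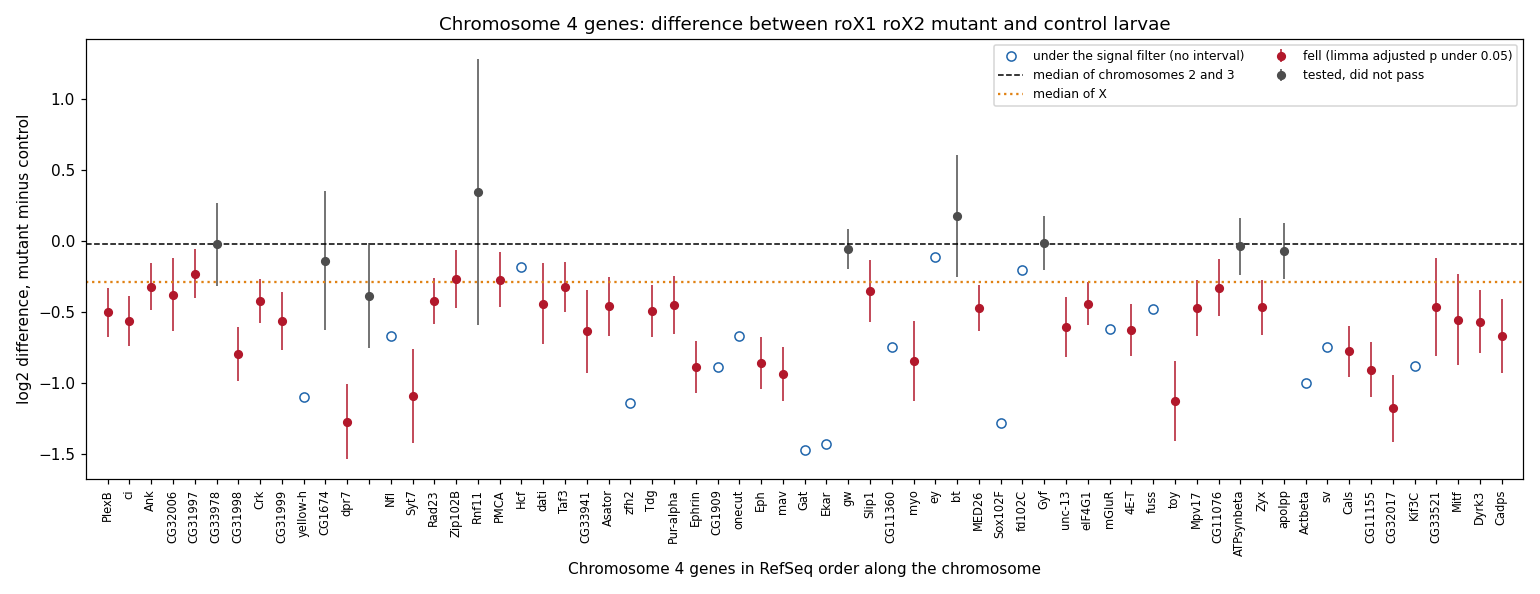
Log2 difference between mutant and control for the 65 chromosome 4 genes in their RefSeq order, with 95% confidence intervals from limma for the 48 tested genes. The 39 genes that fell (red) lie along the whole chromosome, 9 tested genes did not pass (grey), and the 17 genes under the signal filter (open circles) all lie below 0. The position of 1 gene carries no name.

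The 17 genes under the signal filter, whose probe sets averaged less than 28 on the scaled signal, were also lower in the mutant mean without exception, and in 12 of them the arrays of the groups did not overlap. Mutant arrays all lay below control arrays in 32.2% of all genes without the filter. In a fit of all 11953 genes without the filter, 49 of the 65 chromosome 4 genes fell (75.4%) and 0 rose (0 by unadjusted p too), where 25.5% of all genes fell and 17.6% rose. Of the 17 dim genes 10 fell in that fit and 7 did not pass. Signals this low carry an unknown share of background, so the sizes of their differences are uncertain.

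Chromosome 4 genes were then set beside genes of chromosomes 2 and 3 of like signal, with all tested genes divided by mean signal into 4 classes of equal size. In the dimmest class, up to a mean signal of 53.3, 7 of 8 chromosome 4 genes fell (87.5%), against 25.2% of 1550 reference genes, but 4 of the 7 are those whose mutant means lay under the filter level, and without them it was 3 of 4. In the next class, up to 95.1, all 3 genes fell, against 30.3% of 1667. In the class up to 200.7, 13 of 14 fell (92.9%), against 28.8% of 1691. In the brightest class 16 of 23 fell (69.6%), against 33.0% of 1728. Against the median of the reference genes of its own class, 44 of the 48 genes were lower and 4 were higher, and 37 ranked among the lowest 25% of reference genes. The 44 and the 37 both include toy, Syt7, myo and Mitf, which passed the filter through their control arrays.

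Within chromosome 4 the difference tended to be larger at lower signal, though not evenly from class to class. Medians were -0.74 and -0.46 in the dimmer classes, -0.59 in the class up to 200.7 and -0.33 in the brightest. Across the 48 genes the log2 difference and the mean signal had a Spearman correlation of 0.549 (Pearson 0.567), whereas across 6636 genes of chromosomes 2 and 3 the values were -0.016 and -0.023. These are descriptions across probe sets of the same 6 arrays. The -0.74 of the dimmest class and the correlations of chromosome 4 include toy, Syt7, myo and Mitf. Those genes passed the filter through their control arrays, and no value was computed without them, so the trend is given as a description only. When 50 was added to every scaled signal ahead of the log2 step, which compresses the differences of dim probe sets, 39 genes again fell but the median difference relative to chromosomes 2 and 3 was -0.35 in place of -0.45. The spread among the genes was narrower than on the other autosomes, with an SD of 0.342 on the log2 scale against 0.570 on chromosomes 2 and 3.

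**Figure D2:**
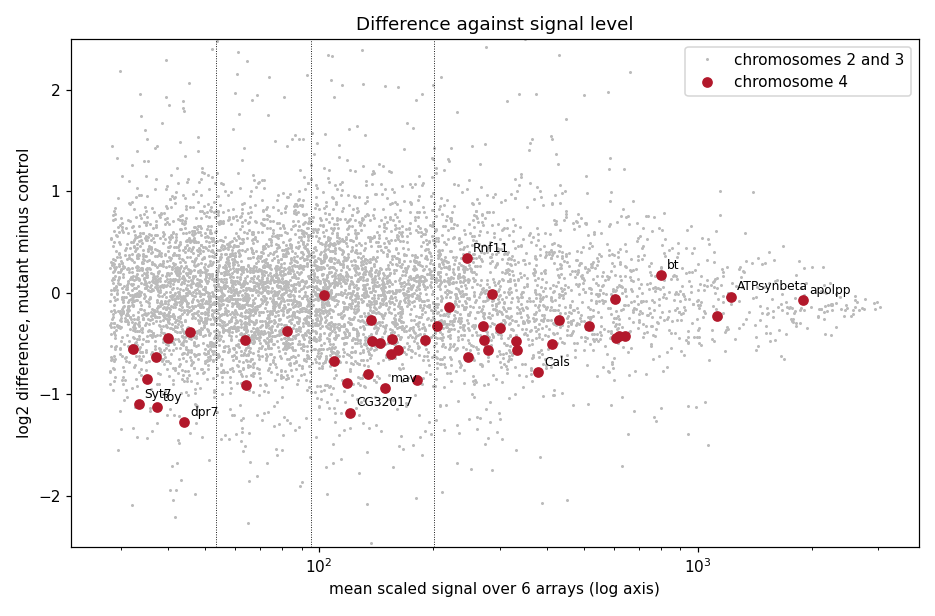
Log2 difference (mutant minus control) against mean scaled signal over the 6 arrays (log axis) for genes of chromosomes 2 and 3 (grey points) and of chromosome 4 (red), with dotted lines at the bounds of the signal classes. Nearly all red points lie under 0 at every signal level, and those nearest 0 are mostly on the bright side; 29 reference genes lie outside the plotted range of 2.5 in either direction.

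The ligands and receptors of the chromosome included several of its clearest falls. mav (maverick), a ligand of the TGF-beta superfamily, read 105, 103 and 115 on the mutant arrays against 213, 211 and 196 on the control arrays. The groups were far apart, and the mutant mean of 108 ± 6.29 was 47.8% below the control mean of 207 ± 8.85 when compared on the log2 scale (-0.94, SE 0.0827, limma adjusted p = 0.000143). myo (myoglianin), the ligand made by muscle and glia, fell by 0.84 (SE 0.121, adjusted p = 0.000853), from 41.2, 53.9 and 47.0 on control arrays to 24.5, 26.8 and 27.4, all under the filter level, so that the size is uncertain. Actbeta (Activin-beta), known from neurons, was under the signal filter. It read 16.1, 15.6 and 16.3 in the mutant against 28.1, 39.2 and 29.7 in the control, again without overlap, and fell in the fit without the filter (-0.996, adjusted p = 0.00118).

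Ephrin, a membrane-bound guidance ligand, and Eph, its receptor tyrosine kinase, were lowered to a like extent. Ephrin read 92.8, 83.1 and 86.8 in the mutant against 159.7, 164 and 161 in the control (-0.89, SE 0.0785, adjusted p = 0.000146). Eph read 142, 128 and 134 against 243, 252 and 238 (-0.86, SE 0.079, adjusted p = 0.000164). In both genes every mutant array lay below every control array.

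The other tested signalling genes differed by less. PlexB, a semaphorin receptor, fell by 0.50 (SE 0.0761), with mutant values of 371, 339 and 331 against 502, 501 and 472. Its second kept probe set gave -0.75, so the brightest probe set gives the smaller of its differences. Crk, an SH2/SH3 adaptor, fell by 0.42, Ank (ankyrin), which links membrane proteins to the spectrin cytoskeleton, by 0.32, and the kinase genes Dyrk3 and Asator by 0.57 and 0.46. In all, 9 of 10 tested genes of the signalling list fell, with a median of -0.53. Without myo, whose mutant mean lay under the filter level, it was 8 of 9. The share over all tested genes of chromosome 4 was 81.2%.

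**Figure D3:**
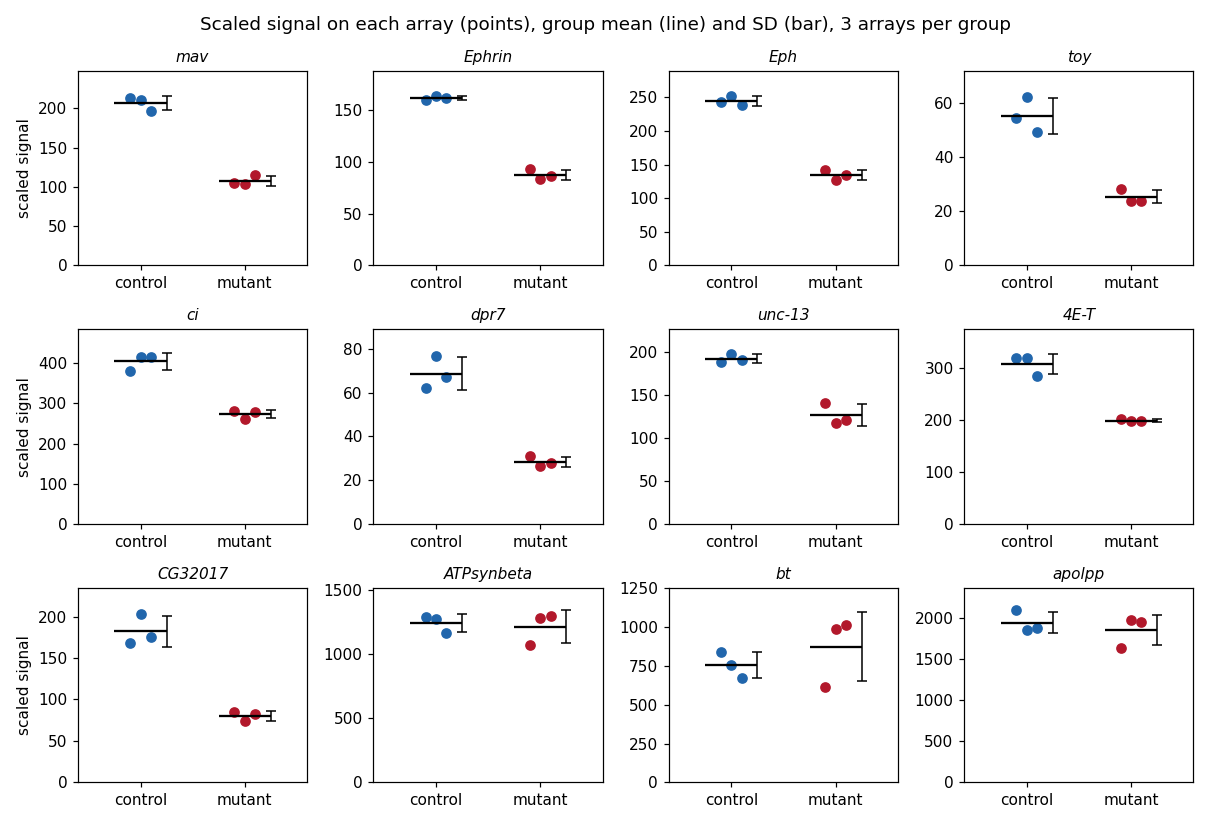
Scaled signal of 12 chromosome 4 genes on each control (blue) and mutant (red) array, with group means (lines) and SD (bars), n = 3. For mav, Ephrin, Eph, toy, ci, dpr7, unc-13, 4E-T and CG32017 all mutant points lie below all control points, while the groups overlap for ATPsynbeta, bt and apolpp.

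All 5 tested transcription factors and cofactors fell, with a median of -0.55, toy and Mitf with mutant means under the filter level. Without toy and Mitf it was 3 of 3, where 81.2% of all tested genes of chromosome 4 fell. toy (twin of eyeless), one of the Pax6 genes at the top of eye development, had the lowest value. It read 28.1, 23.9 and 23.9 in the mutant against 54.6, 62.3 and 49.2 in the control (-1.13, SE 0.122, adjusted p = 0.000271). Another of its probe sets, below the signal filter, differed by -1.15. ci (cubitus interruptus), the transcription factor at the end of the Hedgehog pathway, read 281, 262 and 278 against 382, 416 and 417. This was a fall of 0.56 (SE 0.076, adjusted p = 0.000657), and the groups did not overlap. MED26, a subunit of the Mediator complex that links activators to RNA polymerase II, had nearly equal control values of 388, 390.3 and 390.2 and mutant values of 279, 272 and 293 (-0.47). Mitf, a regulator of lysosome genes, fell by 0.55 and dati, a zinc finger gene, by 0.44. Leaving out mutant array 2 or 3 or control array 3 ended the call for dati (adjusted p = 0.0562 to 0.0666).

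8 further transcription factor genes were under the signal filter. Sox102F, zfh2, NfI and onecut fell in the fit without it, by 1.28, 1.14, 0.67 and 0.66. Sox102F, a Sox gene, read 10.9, 8.25 and 10.3 in the mutant against 23.7, 25.02 and 22.2 in the control. zfh2, a zinc finger and homeodomain gene of the wing, read 18.3, 11.9 and 15.7 against 30.5, 39.3 and 30.7. The other dim members did not pass: ey (eyeless), the second Pax6 gene, stood at -0.11 (adjusted p = 0.493) with values of 20.6, 22.4 and 18.8 against 21.6, 23.1 and 22.0, sv at -0.74, Hcf at -0.18 and fd102C at -0.20. The difference between toy and ey was not tested.

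Genes used at synapses or in neurons held the lowest median of the role lists, -0.67, and all 7 tested fell. Without Syt7 it was 6 of 6, where 81.2% of all tested genes of chromosome 4 fell. dpr7, a cell surface immunoglobulin gene of the family that helps neurons recognise partners, read 31.0, 26.3 and 27.8 in the mutant against 62.0, 76.9 and 67.0 in the control (-1.27, SE 0.113, adjusted p = 0.000148), the largest difference of any tested gene of the chromosome. Syt7, a synaptotagmin gene, fell by 1.09 (SE 0.143, adjusted p = 0.000577), from 41.2, 58.0 and 48.5 to 25.2, 21.2 and 22.4. Both lie in the dimmest class. All mutant values of Syt7 were under the filter level of 28 and those of dpr7 lay around it, so the sizes are uncertain. Cals (calsyntenin), a cadherin of postsynaptic membranes, is far brighter and fell as clearly, from 494, 508 and 489 to 315, 277 and 280.2 (-0.78, SE 0.0778, adjusted p = 0.000213). Cadps and unc-13, which prime vesicles for release, fell by 0.67 and 0.61. Pur-alpha fell by 0.45, and PMCA, the calcium pump of the plasma membrane, by 0.27. The call for PMCA was lost on leaving out array 2 of either group (adjusted p = 0.0901 and 0.0942), and with all-gene or no rescaling. Its other kept probe sets gave -0.34 and -0.45 (limma adjusted p = 0.0105 and 0.0124 in a fit of all kept probe sets). The brightest probe set thus gives the smallest of its differences. Under the signal filter, Gat, a GABA transporter gene, read 8.30, 8.74 and 14.2 against 28.9, 30.0 and 25.2 and fell in the fit without the filter (-1.47, adjusted p = 0.00102), as did Ekar (-1.43), a kainate-type glutamate receptor gene, while mGluR did not pass (-0.62, adjusted p = 0.0786).

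Some markers of neurons outside chromosome 4 were lower as well. Of 6 listed, 4 had a probe set of their own and 2 were tested, elav (-0.53) and Appl (-1.02). Both fell, and both are X-linked, where 48.1% of tested X-linked genes fell. The call for elav was lost without mutant array 2, without control array 3 and without rescaling (adjusted p = 0.0568, 0.0542 and 0.0592). Their summed signal ran from 47.9 to 62.1 on mutant arrays and from 78.8 to 98.2 on control arrays. The autosomal markers nSyb and brp were under the signal filter and did not pass in the fit without it (0.02, adjusted p = 0.942, and -0.12, adjusted p = 0.609). Their part in the lower signal of the neuronal genes was not tested. In whole larvae fewer cells of a type and less RNA per cell cannot be told apart.

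**Figure D4:**
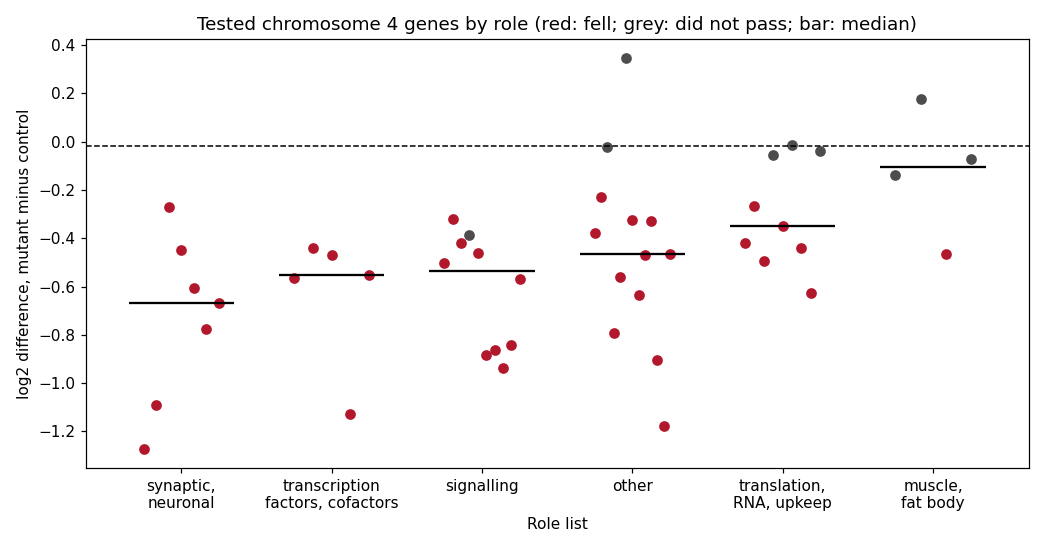
Log2 difference of each tested chromosome 4 gene by role list, ordered by the list medians (bars), with genes that fell in red and genes that did not pass in grey. Medians run from -0.67 for synaptic and neuronal genes to -0.10 for muscle and fat body genes, and the dashed line is the median of chromosomes 2 and 3.

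Genes of translation, RNA handling and cell upkeep were divided. Of 9 tested, 6 fell and 3 did not pass, with a median of -0.35. 4E-T, which binds the cap-binding factor eIF4E and represses translation, read 203, 198 and 198 in the mutant against 321, 319.8 and 286 in the control (-0.63, SE 0.0794, adjusted p = 0.000505). eIF4G1, the scaffold of the translation initiation complex, fell by 0.44 (SE 0.0662), from 699, 747 and 683 to 533, 514 and 520.5. Tdg, a thymine DNA glycosylase gene, fell by 0.50 and Rad23, which brings ubiquitinated proteins to the proteasome, by 0.42. Slip1 and the zinc transporter gene Zip102B fell by 0.35 and 0.27. The call for Slip1 was lost without control array 2 (adjusted p = 0.054), and that for Zip102B without either of mutant arrays 1 and 2 or of control arrays 1 and 2 (adjusted p = 0.0662 to 0.0938).

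The 3 genes of this list that did not pass stood close to 0 with narrow intervals. ATPsynbeta, the catalytic beta subunit of the mitochondrial ATP synthase, read 1068, 1278 and 1294 in the mutant against 1291, 1272 and 1163 in the control (-0.04, 95% interval -0.24 to 0.16, adjusted p = 0.741). Gyf stood at -0.01 (-0.21 to 0.18), with overlapping arrays. gw (gawky, the GW182 protein of microRNA silencing) stood at -0.06 (-0.20 to 0.08). Its mutant values of 595, 608 and 582 all lay below its control values of 629, 616 and 612. For each of these 3 the interval leaves out the median of the chromosome, -0.47. The signs of ATPsynbeta and Gyf turned with all-gene or quantile scaling, and those of all 3 without rescaling, but none passed under any alternative.

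Muscle and fat body genes were the exception among the role lists, as 1 of 4 tested fell. Zyx (zyxin), which lies at focal adhesions, fell by 0.47 (SE 0.0833), from 299.7, 345 and 318 to 236, 221 and 238. apolpp, the precursor of the lipid carrier apolipoproteins made in fat body, read 1642, 1976 and 1961 in the mutant against 2098, 1866 and 1887 in the control (interval -0.27 to 0.12). Its sign turned with quantile scaling, without rescaling and without mutant array 1, with no call. bt (bent), the titin-like projectin of muscle, read 615, 989.9 and 1009.7 against 838, 757 and 673. Mutant array 1 lay below and the other mutant arrays above all 3 controls. Without mutant array 1 bt was higher in the mutant and passed (0.41, adjusted p = 0.00544), and it was then the only gene of the chromosome called as a rise. CG1674, which resembled bt in that mutant array 1 was lowest (147, 236 and 271 against 263, 222 and 214), stood at -0.14 (interval -0.63 to 0.35) and at 0.12 without that array (adjusted p = 0.38). yellow-h, under the signal filter, fell in the fit without it (-1.10).

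Of 6 listed muscle markers on other chromosomes, 4 were tested and 3 rose, where 23.1% of all tested genes rose. These were sls (1.97), Prm (0.75) and up (0.77), while Mlc2 did not pass (-0.21, adjusted p = 0.476). Each of the 3 was lower on mutant array 1 than on the other mutant arrays, but still above all control arrays. The summed signal of the 4 tested markers was 1633 to 2175 on mutant arrays and 1005 to 1267 on control arrays. sls, the other giant titin-like gene, read 78.3 on mutant array 1, 149.8 and 142 on the others, and 25.4 to 38.3 in controls. Of the 3 tested fat body markers FASN1 rose (2.35), Fbp1 fell (-0.26, a call lost with quantile or no rescaling) and Lsp2 did not pass. Their summed signal was 5417 to 6186 on mutant arrays and 5480 to 5661 on control arrays. Whether the muscle markers account for the values of bt and CG1674 was not tested.

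Among the 13 tested genes outside the role lists, 11 fell and 2 did not pass. CG32017 had the smallest p of the chromosome and read 84.7, 73.8 and 82.4 against 168, 203 and 175 (-1.18, SE 0.101, adjusted p = 0.000131). CG11155 fell by 0.91, CG31998 by 0.79, CG33941 by 0.64 and CG31999 by 0.56. Taf3, a subunit of the general transcription factor TFIID, fell by 0.33 and Mpv17, a gene of an inner mitochondrial membrane protein family, by 0.47. The falls of CG31997 (-0.23), CG32006 (-0.38) and CG33521 (-0.47) were each lost on leaving out some single arrays, at adjusted p from 0.0553 to 0.107. CG31997 was lost without mutant array 1 or 3 or control array 1 or 2, CG32006 without mutant array 2 or control array 2 or 3, and CG33521 without mutant array 2 or control array 1 or 2.

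Rnf11, a RING finger gene, was the least reproducible member. It read 455, 273 and 171 on mutant arrays and 128, 317 and 255 on control arrays, a more than 2-fold range within either group, and its difference of 0.35 had an interval of -0.59 to 1.28. Its other probe set, below the signal filter, was higher in the mutant by 0.42. That probe set read 26.8, 23.7 and 29.5 against 18.0, 23.1 and 18.9, without overlap. The probe sets of CG33978 differed in call. The brighter one read 87.6, 106 and 116 against 109.7, 112 and 92.4 and did not differ beyond the spread (-0.02, adjusted p = 0.889). The dimmer one, also above the signal filter, was lower by 1.63 (SE 0.152, adjusted p = 0.000196 in a fit of all kept probe sets), with means of 18.3 and 56.9. Its mutant values were under the filter level, which it passed through its control arrays, so the size is uncertain. Of the 5 tested genes with several kept probe sets CG33978 was the only one in which these differed in call. When all kept probe sets of a gene were averaged, CG33978 was called lower through this dim probe set and the count of falls was 40 of 48.

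Falls were spread along the chromosome. With the 48 tested genes ordered as in RefSeq and divided into 3 stretches of 16, 12 of 16 fell from PlexB to Rnf11, 13 of 16 from PMCA to Gyf, and 14 of 16 from unc-13 to Cadps. The medians were -0.40, -0.45 and -0.56. These counts and medians include Syt7 in the first stretch, myo in the next, and toy and Mitf in the last. Those genes passed the signal filter through their control arrays, and no value by stretch was computed without them. Relative to chromosomes 2 and 3, the last of these stretches stood at -0.53, -0.64 and -0.45 on the 3 mutant arrays, the first at -0.38, -0.45 and -0.37, and all control arrays lay between -0.05 and 0.05. The difference between stretches was not tested. The longest run of neighbouring tested genes that all fell held 10 genes, from PMCA to mav, and the 9 genes that did not pass were never next to each other in the order. Neighbours were hardly more alike than distant genes: the median absolute gap in log2 difference was 0.293 between consecutive genes and 0.328 over all pairs, and the correlation across the 47 consecutive pairs was 0.031. ATPsynbeta and apolpp, for example, lie on either side of Zyx, which fell.

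Taken over all signal levels, the median of chromosome 4 was lowered by more than that of X on each mutant array. In the brightest class the median differences were close, -0.33 for chromosome 4 and -0.31 for X. They were -0.59 and -0.35 in the class up to 200.7 and -0.46 and -0.26 in the next dimmer class. In the dimmest they were -0.74 and -0.26, and that class holds the 4 genes that passed the filter through their control arrays. The median deviation of chromosome 4 from the control mean, less that of chromosomes 2 and 3, was -0.47, -0.51 and -0.41 on the mutant arrays (mean -0.46 ± 0.052, SD, n = 3) and that of X -0.28, -0.26 and -0.27. Chromosome 4 less X was -0.19, -0.25 and -0.14 (mean -0.19 ± 0.057), against -0.02, 0.07 and -0.07 on the control arrays (SD 0.072). The mutant and control values did not overlap, the controls centre on 0 by construction, and no p is given because these are scores over chosen genes. Of X-linked genes 48.1% fell and 10.4% rose. On the 4 large autosomal arms between 26.4% and 32.4% fell and between 23.2% and 27.4% rose.

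**Figure D5:**
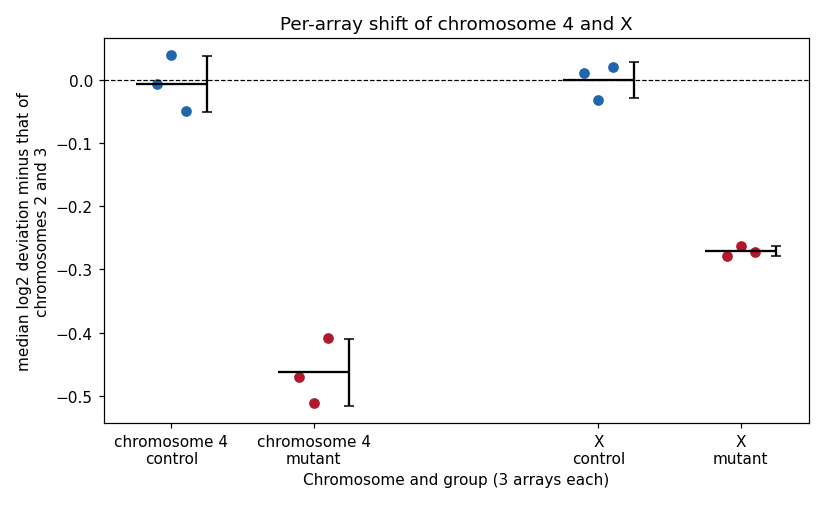
Median log2 deviation of chromosome 4 and of X from the control mean, less that of chromosomes 2 and 3, on each control (blue) and mutant (red) array, with group means and SD, n = 3. Mutant arrays lie between -0.51 and -0.41 for chromosome 4 and between -0.28 and -0.26 for X, and control arrays lie around 0.

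Genes on other chromosomes that work with members of chromosome 4 were called in both directions, as were genes at large (32.4% of all tested genes fell and 23.1% rose). Of 11 genes of the Activin and BMP pathways, 3 fell, 1 rose and 7 did not pass, with a median of 0.03, against -0.06 for all genes, so both shares were under those of all genes. The X-linked Smad gene Smox fell by 0.59 and the receptor genes tkv and put by 0.41 and 0.32. daw, the Activin-like ligand gene on arm 2L, rose (0.34, adjusted p = 0.0135, or 0.27 and adjusted p = 0.0523 without control array 3), where mav and myo fell. Of 6 tested Hedgehog pathway genes 3 fell, among them smo, the signal transducer, by 0.41 and the ligand gene hh by 0.55 (adjusted p = 0.0531 without mutant array 2). Su(fu), which restrains the ci protein, rose by 0.60. The kinesin-like gene cos did not pass (0.33, adjusted p = 0.0714), but did without mutant array 3 and with all-gene, quantile or no rescaling (0.37 to 0.45). Without rescaling the Activin and BMP list had 1 fall and 2 rises. The Hedgehog list then also had 1 fall and 2 rises, and its median turned from -0.10 to 0.03. The call for hh was lost under that setting (adjusted p = 0.0538).

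Of 9 ATP synthase subunit genes elsewhere in the genome 4 rose and 0 fell (limma; 0 by unadjusted p), where ATPsynbeta stood near 0 and 23.1% of all genes rose (30.8% without rescaling, when 5 of the 9 did). They were blw, the alpha subunit (0.75), ATPsyngamma (0.56), ATPsynB (0.47) and ATPsynD (0.38). Leaving out any of 4 arrays (2 or 3 of either group) ended the call for ATPsynD (adjusted p = 0.0519 to 0.0622), and without mutant array 1 ATPsynO rose as well (0.27, adjusted p = 0.0149). Of 15 small ribosomal subunit genes 9 fell and 0 rose (limma; 0 by unadjusted p), with a median of -0.17, where 32.4% of all genes fell. But 3 fell with all-gene scaling (28.9% of all genes), and 1 without rescaling (21.9%) or with quantile scaling (29.2%), under which 1 rose. Under these 3 scalings the share of the list that fell was under that of all genes. On leaving out single arrays the ribosomal falls numbered 3 (control array 2) to 5, except 9 without mutant array 2. Of 2 tested retinal determination genes dac fell (-0.51), a call lost on leaving out any 1 of 4 arrays (mutant array 2 or 3, control array 1 or 3; adjusted p = 0.0739 to 0.102). The gene so did not pass, but did without mutant array 1 (-0.36, adjusted p = 0.0492). The Wnt and guidance lists had 2 and 1 tested genes, of which 0 passed (limma; 0 by unadjusted p). Of these nkd was called lower without control array 2 (-0.55, adjusted p = 0.0168).

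Pof, whose protein binds the genes of chromosome 4, was higher in the mutant. It read 384, 337 and 337 on mutant arrays and 196, 211 and 215 on control arrays, and rose by 0.76 (SE 0.0867, adjusted p = 0.000316). Among other regulators of heterochromatin, the gene of HP1a fell by 0.20, a call lost on leaving out any 1 array except control array 1 (adjusted p = 0.0571 to 0.134) and with all-gene, quantile or no rescaling. HP1b fell by 0.37 (adjusted p = 0.0526 without control array 3 and 0.102 without rescaling), and HP1c did not pass. Genes that lie in the pericentromeric heterochromatin of chromosomes 2 and 3 had a median of -0.28, with 5 of 8 falling and 0 rising (limma; 0 by unadjusted p), where 29.4% of genes of chromosomes 2 and 3 fell. Quantile scaling gave 4 falls and 1 rise, that of RpL15 (0.09, adjusted p = 0.0358). The falls numbered 4 with all-gene scaling, 2 without rescaling, and 3 without mutant array 2 or 3 or control array 2. Without mutant array 1 Yeti passed too (adjusted p = 0.0212). Of these Snap25 (-0.85), itself a synaptic gene, and Haspin (-0.54) were lowest. Calls for Dbp80 and Gprk1 were lost without mutant array 2 or 3 or control array 2, that for Dbp80 also without control array 3 and that for Gprk1 without control array 1 (adjusted p = 0.0654 to 0.106). The list is small, and its difference from chromosome 4 was not tested.

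Markers of other tissues were also called, where 32.4% of all tested genes fell and 23.1% rose (21.9% and 30.8% without rescaling). Of 4 tested imaginal disc markers vg and ara fell and nub rose, and their summed signal was 178 to 219 on mutant arrays and 202 to 241 on control arrays. Single arrays decided these calls. That for vg was lost without mutant array 2 (adjusted p = 0.0551), that for ara without mutant array 3 or control array 1 or 3 (adjusted p = 0.0525 to 0.0634), and that for nub without mutant array 1 or 2 or control array 1 or 2 (adjusted p = 0.0802 to 0.14). Of 6 salivary glue genes 5 fell (3 with all-gene scaling or without control array 1 or 3, and 1 with quantile or no rescaling), with summed signals of 12381 to 12842 against 14975 to 15305. The largest of these falls was that of the X-linked Sgs4 (-0.68), and the others stood at -0.23 to -0.15. Of 3 tested testis markers betaTub85D and Mst84Da rose, the latter not without mutant array 1 or 2 or control array 1 or 3 (adjusted p = 0.0792 to 0.139), with summed signals of 2513 to 2880 against 1998 to 2325. In the fit without the signal filter, which holds all 6 listed testis markers, can fell (-0.48, adjusted p = 0.0076), betaTub85D rose, and aly (-0.31), dj (0.14), Mst87F and Mst84Da did not pass, with a median of 0.07 in place of 0.25. The part of these tissues in the values of chromosome 4 genes was not tested.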

How the data were processed

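Per the series' design text, RNA was extracted with TRIzol and cleaned on RNeasy columns, present and absent calls came from perfect match and mismatch probes, and the authors set the median of autosomal transcripts on each chip to 100. The submitters' processing notes name GCOS 1.2. What was deposited is a linear intensity for each probe set. The probe summary, detection calls and the probe sets scaled on are not given in the sources used here. Medians over all deposited probe sets were 101.6 to 108.5.

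Probe sets were named through the platform's annotation table, which can be old, and the RefSeq gene table (Release 6 plus ISO1 MT, for names, chromosomes and gene order only). Of 18769 probe sets outside the controls, 402 had several genes and 4720 had none listed, and neither kind was used. The upper 50% by mean log2 signal (9384) were kept, and the brightest probe set stood for each gene. The scale factors that set the median kept autosomal gene to 100 were 0.246 to 0.262 for mutant and 0.279 to 0.280 for control arrays. The lowest positive value replaced anything not above 0, which touched no chromosome 4 gene.

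limma 3.58.1 (lmFit, eBayes with trend; R 4.3.3) was fitted to the 6 arrays by genotype alone, with Benjamini-Hochberg adjustment and a threshold of 0.05, and was tested on simulated data. The design text calls the 3 preparations of a genotype independent. Intervals are limma's, at 95% and unadjusted.

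Any chromosome 4 gene could be named, with full statistics for the 4 of smallest p in each role list, for the largest and smallest differences, and for brighter genes that did not pass. The rule allowed 2 partner genes per list. Further partners and members given with values (among them put, daw, hh, cos, nkd, ATPsynB, ATPsynD, Yeti, RpL15 and the dim genes) were chosen after their values were seen. The members and all lists were chosen with earlier results of these data known. Alternatives were other filters, scalings, offsets, probe set averaging, eBayes settings, the replicate number as a block, and leaving out each array. The values of 1 chromosome 4 gene are not reported here, but it is counted.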

Additional observations from a re-analysis of the deposited data

How the results depend on the processing

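The count of 39 falls stayed within 1.5 times its value under all 18 refits: 33 to 38 without 1 array, 29 without rescaling, 36 with all-gene scaling, 37 with quantile scaling, 29 of 37 tested genes with the upper 25% of probe sets, and 49 of 65 without the filter. Rises numbered 0 in all of these except without mutant array 1, where bt made 1 (range 0 to 1 on leaving out 1 array). The chromosome 4 shift against chromosomes 2 and 3, -0.45, ran from -0.48 to -0.42 without 1 array and was -0.35 with an offset of 50. Of the 39 genes that fell, 29 passed under every alternative that tested them and 32 on leaving out any 1 array; without rescaling 10 lost their call.

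Signs reversed, without a call, in genes near 0 and in Rnf11 and CG1674. Without rescaling apolpp stood at 0.055, ATPsynbeta at 0.0895, CG33978 at 0.103, gw at 0.0693 and Gyf at 0.114. With all-gene scaling ATPsynbeta stood at 0.0091, CG33978 at 0.0225 and Gyf at 0.0332. With quantile scaling apolpp stood at 0.0496, ATPsynbeta at 0.0664, CG33978 at 0.0141 and Gyf at 0.0363. On leaving out 1 array apolpp ranged from -0.118 to 0.0156, ATPsynbeta from -0.0859 to 0.0523, CG1674 from -0.319 to 0.124, CG33978 from -0.115 to 0.0905, Gyf from -0.0645 to 0.0186 and Rnf11 from -0.0378 to 0.694. The cause was not tested.

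With the replicate number as a replicate block, 35 genes fell, and CG32006, CG33521, PMCA and Zip102B were lost (adjusted p = 0.0525 to 0.0924). Deviations of same-numbered arrays from their group means correlated at -0.34, -0.06 and -0.38. Among differently numbered arrays the highest value was 0.51, between mutant array 1 and control array 3. With deviations centred within 3 arrays per group, these values cannot decide whether samples were paired. With 3 arrays per group and no detection calls, probe sets near the filter limit the sizes given.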
